A study of Mus musculus with 42 samples.

Results

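Genes of the X chromosome that were still expressed from the paternal allele in morulae and mostly maternal in trophectoderm were followed through mouse development. They were chosen by their paternal share, the paternal part of the summed maternal and paternal expression. Members had a share of at least 25% in morulae and at most 20% in E3.5 trophectoderm, with a total of at least 2 FPKM (fragments per kilobase of transcript, set relative to all fragments of the library) in both. Of 1052 listed X-linked genes, 184 reached that total in both tissues. A set of gene names and name families was left out by the rule, which removed 25 of the 184, and 54 of the remaining 159 were members. Of the other genes, 69 were low in both tissues (under 25% and at most 20%), 31 were high in both (at least 25% and over 20%) and 5 were under 25% in morulae and over 20% in trophectoderm.

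In female mouse embryos the paternal X chromosome is silenced first, from the cleavage stages on, when the noncoding RNA Xist is made from it and spreads along it. Xist recruits silencing proteins, and Polycomb complexes then mark the chromosome. The paternal X stays inactive in the trophectoderm and primitive endoderm and in the tissues they form, the extraembryonic ectoderm, visceral endoderm and yolk sac endoderm. In the epiblast it is reactivated, and either X is then inactivated at random. Genes differ in how early they are silenced, and some escape silencing.

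The 42 samples were made with Smart-seq2, a full-length method for small inputs that captures polyadenylated RNA. Wild-type females of the cross C57BL/6N X PWK/PhJ, the mother named first, gave 3 samples of 8-cell embryos and 3 of morulae. From E3.5 blastocysts there were 3 samples of trophectoderm and 2 of inner cell mass. At E6.5 there were 3 samples of visceral endoderm, 2 of extraembryonic ectoderm and 1 of epiblast, and at E9.5 1 of yolk sac. Another table of the same cross held morulae only: 4 wild-type males and 3 wild-type females as controls, and 4 females of the genotype Xp XRRa KO, in which the region XRRa is deleted on the paternal X. In both tables the authors pooled each group into a column per allele. The third held 13 single E7.5 extraembryonic ectoderm samples of female EedmNull embryos. Their mothers were Eed fl/fl with Gdf9-Cre, a driver active in oocytes, and their fathers wild-type PWK/PhJ. Maternal Eed, a core subunit of Polycomb repressive complex 2, is therefore missing from these eggs, whereas the paternal allele is intact. The cross ran in 1 direction, so the paternal allele was always the PWK/PhJ allele and parent and strain cannot be told apart. Read depth was unknown because no counts were given. In bulk tissue, fewer cells of a type and less RNA per cell cannot be told apart.

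Marker genes matched the labels in part. The inner cell mass column held 5 of 5 inner cell mass markers at 2 FPKM or more, but also 6 of 6 trophectoderm markers, with a summed level of 1225 FPKM against 3692 in trophectoderm. The extraembryonic ectoderm column held all 5 of its own markers, and also all 5 visceral endoderm markers (233 FPKM summed, against 2693 in visceral endoderm) and all 6 epiblast markers (342 against 729). In yolk sac 5 of 5 yolk sac markers were present, with 2 of 4 decidual markers (29.2 FPKM summed), and only 25 members reached the minimum there. Of 5 X-linked placental genes, the only markers that the EedmNull table can hold, Rhox6 ranged from 16.2 to 150 FPKM over the 13 embryos and Rhox4b was listed at 0. The part of such mixtures in the shares below was not tested.

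The members had varied roles, and the groups named here were made after their values were seen. For RNA processing, export and translation there were 10 members (Cstf2, Ddx3x, Thoc2, Upf3b, Gemin8, Zrsr2, Gpkow, Las1l, Ftsj1 and Mcts1). The ubiquitin pathway gave 5 (Uba1, the main activating enzyme, with Ube2a, Cul4b, Otud5 and Xiap). Another 5 act in transcription or chromatin (Gata1, Tfe3, Yy2, Cited1 and Msl3), and 3 in DNA replication and cell division (Pola1, Cenpi and Haus7). Mitochondrial proteins were encoded by 5 members (Aifm1, Apoo, Timm8a1, Hsd17b10 and Fundc1), and 8 act in metabolism, sterol synthesis and glycosylation (G6pdx, Prps1, Ebp, Piga, Alg13, Prdx4, Pgrmc1 and Rgn). Signalling and membrane traffic held 7 (Araf, Pim2, Ikbkg, Amot, Ocrl, Ccdc22 and Tbc1d25), and 11 had other roles (Armcx5, C330007P06Rik, Gripap1, Mmgt1, Ngfrap1, Plp2, Praf2, Tsx, Txlng, Wbp5 and Wdr13).

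Promoter sequence was available in RefSeq for 51 of the 54 members, as windows of 300 bases on build GRCm38.p6 (250 before and 50 after the start). The members' windows were rich in CG dinucleotides, with a median of 19 per gene against 8 over all 27025 genes with a window. Genes low in both tissues had a median of 18, and so had genes high in both. The window with most CG was counted where a gene had several. Short motifs were then searched on both strands. Yy1 (AANATGGCG) was found in 5 of the 51 members (9.80%) and in 2.76% of all genes, Nrf1 (GCGCA, any base, then GCGC) in 4 (7.84%, against 5.19%), Ets (CCGGAAG) in 7 (13.7%, against 9.93%) and the E-box CACGTG in 8 (15.7%, against 8.09%). Genes low in both carried them at 8.47%, 8.47%, 25.4% and 10.2%, and genes high in both at 8%, 4%, 16% and 16%. Over all X-linked genes with a window the values were 3.64%, 3.83%, 7.75% and 9.38%. These are matches of letters and no measured binding. The following 4 members are printed because each recurs in the results and had a match upstream of its start. Each line gives the 250 bases before the RefSeq start, 5′ to 3′ on the gene's strand, with motif matches in capitals.
Pim2 (chrX:7878056-7878305, plus strand): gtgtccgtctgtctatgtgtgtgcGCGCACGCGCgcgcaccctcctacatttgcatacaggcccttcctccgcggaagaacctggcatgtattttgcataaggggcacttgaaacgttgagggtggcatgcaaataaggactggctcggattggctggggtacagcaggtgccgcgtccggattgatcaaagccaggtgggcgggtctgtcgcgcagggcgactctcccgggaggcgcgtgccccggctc
Araf (chrX:20848293-20848542, plus strand): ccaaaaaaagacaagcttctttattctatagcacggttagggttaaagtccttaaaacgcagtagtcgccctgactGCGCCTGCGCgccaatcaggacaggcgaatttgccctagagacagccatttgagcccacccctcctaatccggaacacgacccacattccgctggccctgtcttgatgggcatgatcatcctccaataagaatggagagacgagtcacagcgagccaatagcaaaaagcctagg
Tbc1d25 (chrX:8175925-8176174, minus strand): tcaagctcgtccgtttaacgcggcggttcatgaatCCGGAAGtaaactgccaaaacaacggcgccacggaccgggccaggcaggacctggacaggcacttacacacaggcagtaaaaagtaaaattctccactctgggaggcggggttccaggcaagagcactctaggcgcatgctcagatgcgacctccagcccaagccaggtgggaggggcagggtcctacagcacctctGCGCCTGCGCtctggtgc
Upf3b (chrX:37110323-37110572, minus strand): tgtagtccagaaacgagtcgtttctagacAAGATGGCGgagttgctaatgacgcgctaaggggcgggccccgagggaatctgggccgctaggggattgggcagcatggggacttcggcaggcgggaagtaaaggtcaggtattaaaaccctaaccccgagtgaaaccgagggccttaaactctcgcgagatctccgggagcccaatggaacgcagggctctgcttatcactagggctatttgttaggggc
The capitals mark an Nrf1 match in Pim2 and in Araf, an Ets and then an Nrf1 match in Tbc1d25, and a Yy1 match in Upf3b. The Yy1 matches of Gripap1, Prps1, Thoc2 and Uba1 lay after the start and are not printed. Upstream of the start, CG occurred 22 times in Pim2, 12 in Araf, 15 in Tbc1d25 and 16 in Upf3b.

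Members were spread along the chromosome. In RefSeq gene order, which placed 183 of the 184 measured genes, 37 of the 124 genes on the centromere side of Xist were members and 17 of the 59 from Xist to the distal end. There were 13 runs of neighbouring members, holding 32 of the 54, where genes not measured were skipped. Both genes were members in 19 of 182 neighbouring pairs, with members at 54 of the 183 genes, and no excess was tested. The longest, of 5 genes, was Praf2, Tfe3, Gripap1, Otud5 and Pim2 near the centromere. Tbc1d25, Ebp and Ftsj1 formed another run further on. Pgrmc1 and Ube2a flanked C330007P06Rik, and Cstf2, Cenpi and Timm8a1 stood together distal to Xist.

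The choice of members fixed their shares in 2 columns, and these values are given as a description. The median member share was 36.8% in morulae and 10.1% in trophectoderm. Tsx, a testis-expressed gene beside Xist, stood at the morula threshold with 25%, followed by Apoo (25.7%), Armcx5 (25.9%) and Zrsr2 (26.1%), while Tsr2 (24.97%), Kif4 (24.2%) and Vma21 (24.1%) were just outside. At the trophectoderm threshold Otud5 (19.8%), Araf (19.4%), G6pdx (19.4%) and Plp2 (18.8%) were just inside, and Renbp (20.3%), Timm17b (20.6%) and Cdk16 (21.4%) just outside. Membership of these genes therefore rests on differences of a few points between single pooled columns.

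As a description, the lower share in trophectoderm came mostly with less paternal RNA. On log2 FPKM plus 1, the paternal allele was lower than in morulae in 51 of 54 members, by a median of -1.74, and at least 2-fold lower in 36. It was lower in 53 of 69 genes low in both tissues (2-fold in 20) and in 24 of 31 high in both (2-fold in 10). The rule used both columns, so nothing is read from that contrast. The maternal allele differed by a median of 0.31 and was at least 2-fold higher in 8. Timm8a1, a chaperone for mitochondrial protein import, had a paternal level of 68.6 FPKM in morulae and 1.10 in trophectoderm, and a maternal level of 130 and 54.8. Pgrmc1, a haem-binding membrane protein, went from 25.4 to 0.700 FPKM on the paternal allele while the maternal allele was at 41.4 and 62.1. Prps1, which makes the precursor of nucleotides and was the most abundant member, went from 220 to 29.9 FPKM paternal beside 418 and 432 maternal. The 3 members whose paternal level was not lower were Ngfrap1, Wbp5 and Zrsr2. Ngfrap1 had 2.05 FPKM paternal in morulae and 6.37 in trophectoderm, and its maternal level was 0.428 and 93.5. Wbp5, its neighbour, had 2.15 and 2.37 paternal and 0.851 and 110 maternal, so in these 2 genes the maternal allele differed far more than the paternal one. Of 8078 genes of all chromosomes at the minimum in either tissue, the median total log2 ratio was 0.06.

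**Figure D1:**
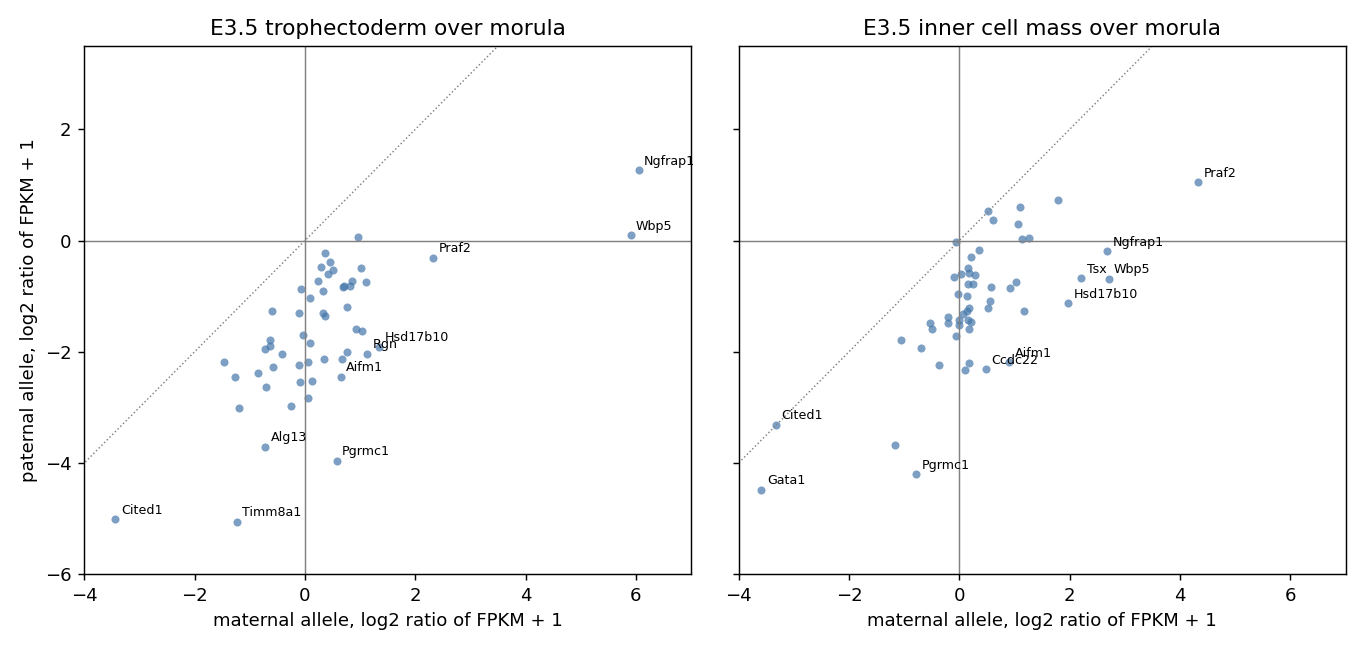
Change of the maternal allele (horizontal axis) and the paternal allele (vertical axis) from morula to E3.5 trophectoderm (left) and to E3.5 inner cell mass (right), as log2 ratios of FPKM plus 1, 1 point per member gene. The dotted line marks equal change of both alleles. In trophectoderm, which the rule used together with morula, 51 of 54 points lie under 0 on the vertical axis. Ngfrap1 and Wbp5 stand far to the right there.

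Before the morula most members had RNA of both alleles. In 8-cell embryos 46 members reached the minimum, with a median share of 47.1% (95% order-statistic interval over genes, 40.3 to 53.0; such intervals hold no spread between embryos). 3 were at or under 20%, which is 6.52%, against 17.1% of all X-linked genes at the minimum, and 42 were at or over 25%, against 78.6%. Genes low in both tissues already had a median of 32.9% and genes high in both 53.2%. The 3 low members were G6pdx, of the pentose phosphate pathway (12%), Praf2 (14%) and Apoo, a mitochondrial cristae protein (15.3%). At the top stood Ngfrap1 (84.6% of 3.07 FPKM) and Wbp5 (82.0% of 4.85 FPKM), which were scarce at this stage, then Piga, of GPI anchor synthesis (77.5%), and the calcium-binding protein Rgn (76.0%).

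From 8-cell embryos to morulae the member share was lower in 37 of 46 genes, by a median of -8.70 points. X-linked genes as a whole did alike, with 144 of 177 lower and a median of -9.26 points. Over the same step genes low in both tissues had a median difference of -18.1 points. The paternal level of the members went both ways over that step, lower in 23 of 54 and at least 2-fold lower in 6, with a median log2 ratio of 0.12. The median maternal ratio was 0.64. In genes low in both, the paternal median was -0.96. Prps1 had 781 FPKM paternal and 896 maternal in 8-cell embryos and 220 and 418 in morulae. Yy2, a retrotransposed relative of the factor Yy1, went against the trend, with a share of 22.7% in 8-cell embryos and 53.2% in morulae, and so did Praf2 (14% and 56.2%). Since morula values chose the members, the morula side of these differences is not independent of the rule.

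**Figure D2:**
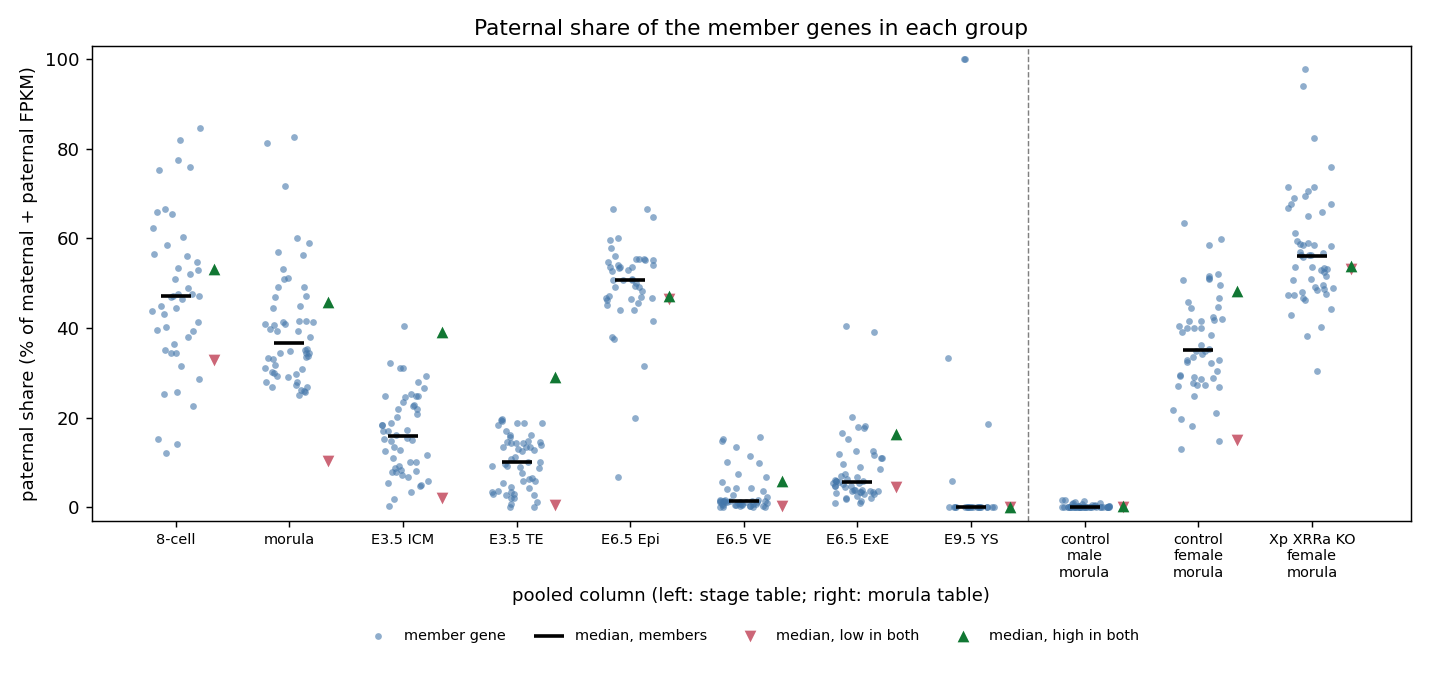
Paternal share of each member gene (points) in every pooled column, for genes at 2 FPKM or more; bars are member medians, and triangles are medians of the genes low in both and high in both tissues. Members lie between both triangles from 8-cell to trophectoderm, near 50% in epiblast (median 50.7%) and at 1.28% in visceral endoderm.

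Inner cell mass, which the rule did not use, was closer to trophectoderm than to morula. The median share of 52 members was 15.8% (11.6 to 20.1). 33 of them, or 63.5%, were at or under 20%, against 66.5% of all X-linked genes, and 8 were at or over 25%, against 22.2%. For 41 of 52 members the inner cell mass value lay between those of morula and trophectoderm. It was above trophectoderm in 43 of the 52, and in 136 of 202 X-linked genes. The median difference was 5.05 points over all 52 members and 1.46 points over these X-linked genes. Because the rule asked for a high morula and a low trophectoderm share, it favours members for which another tissue lies above trophectoderm and between both. These counts are therefore a description, with no test on pooled columns.

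Single members diverged between the 2 blastocyst tissues. Alg13, of protein glycosylation, kept 31.2% in inner cell mass (34.8 FPKM paternal, 76.7 maternal) and had 2.72% in trophectoderm (0.891 and 31.9). Wdr13 (40.4%, at a total of only 2.15 FPKM), Cited1, a transcriptional co-regulator (32.2%), and Tfe3, a basic helix-loop-helix factor (31.1%), were the other highest members in inner cell mass. Prps1 had 26.7% there and 6.48% in trophectoderm. The lowest were Tsx (0.355%), Pgrmc1 (1.79%), the mitochondrial flavoprotein Aifm1 (3.37%) and the mitochondrial dehydrogenase Hsd17b10 (4.75%). Gripap1 went the other way, with 8.33% in inner cell mass and 18.8% in trophectoderm, and 9 members in all were lower in inner cell mass.

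In the single epiblast sample both alleles of the members were at near equal levels. In bulk tissue this cannot be told apart from a mix of cells that each express 1 allele. Their median share was 50.7% (47.2 to 53.7, 46 members), beside 48.1% over all X-linked genes. 38 of 46 lay between 40% and 60%, which is the case for 64.4% of X-linked genes. Araf, a kinase of the MAP kinase cascade, was lowest with 6.67% (1.34 FPKM paternal, 18.8 maternal). It was the only member under 20% there, where 4.05% of X-linked genes were at or under 20%. Tsx stood at 20% of 2.69 FPKM and Apoo at 31.6%. Ngfrap1, known also as Bex3, had 37.5% of 173 FPKM. The splicing-associated gene Gpkow and Praf2 (66.7% each), Gemin8 (64.7%) and Txlng (60%) were highest. Pim2, a serine/threonine kinase, had its highest level of all columns here, 231 FPKM paternal and 196 maternal. Several of these shares are simple fractions, such as 20%, 37.5%, 60% and 66.7%, and may rest on few reads. With 1 sample, none of these differences has a replicate check.

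Visceral endoderm had the lowest member shares of the E6.5 tissues. All 50 members at the minimum were at or under 20%, where 96.8% of X-linked genes were, and the median was 1.28% (1.02 to 1.58) beside 0.65% over all X-linked genes. 43 of 50 were below their own trophectoderm value, which the rule had used. Over all X-linked genes the median was 5.21% in trophectoderm and 0.65% here, so lower shares were not particular to the members. Araf and Armcx5 were listed at 0 on the paternal allele. The peroxiredoxin Prdx4 had 0.0491 FPKM paternal against 114 maternal, and the DNA polymerase subunit Pola1 a share of 0.0495%. At the upper end were the RNA helicase gene Ddx3x (15.6%, 17.9 FPKM paternal and 96.6 maternal), the tRNA methyltransferase gene Ftsj1 (15.2%), the sterol isomerase gene Ebp (14.8%) and the blood transcription factor gene Gata1 (13.3%). Ddx3x is known to escape X inactivation in some tissues.

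Extraembryonic ectoderm held more paternal RNA of the members than visceral endoderm. The median share was 5.53% (3.86 to 7.04, 52 members), and 49 members were at or under 20%, or 94.2%, against 88.1% of X-linked genes. For 46 of 50 members measured in both, the share was lower in visceral endoderm, as it was for 218 of 247 X-linked genes. The median difference was 3.54 points for the members and 3.70 over these X-linked genes, so this was not particular to the members. 3 members were above 20% here, all of them under 20% in trophectoderm by the rule. Wdr13 had 40.5% at a total of 2.39 FPKM, Pim2 had 39.0% (15.2 FPKM paternal, 23.7 maternal) and Ddx3x 20.2%. Pim2 also had 9.17% in trophectoderm and 9.82% in visceral endoderm, and from the blastocyst on its paternal level passed 1 FPKM in extraembryonic ectoderm and epiblast only. Epiblast markers in the extraembryonic ectoderm column are given above, and their part in the Pim2 value was not tested. Lowest were Gata1 (0.875%), Cited1 (0.879%), the phosphatase gene Ocrl (1.42%) and Ngfrap1 (1.76%). Ngfrap1 was also the most abundant member there, with 1100 FPKM maternal and 19.7 paternal.

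Trophectoderm and extraembryonic ectoderm belong to 1 lineage, and 31 of 52 members were lower at the later stage, as were 105 of 211 X-linked genes. Plp2, a membrane protein, had 18.8% in trophectoderm and 3.65% in extraembryonic ectoderm. Ikbkg, a regulator of NF-kappaB signalling, had 18.8% and 4.69%, and Msl3, a chromodomain protein, 17.1% and 3.20%. Yy2 (5.79% and 18.0%), Wdr13 (16.1% and 40.5%) and Pim2 were higher there by more than 10 points, while 5 members were lower by as much. Of the 211 X-linked genes 19 were higher and 34 lower by at least 10 points. Trophectoderm values chose the members, so this contrast is a description.

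The single yolk sac sample measured 25 members. 22 of them, or 88.0%, were at or under 20%, against 90.1% of X-linked genes, and 20 had no paternal value above 0. Off the X, 25.3% of 3578 genes were at or under 20% in this column, and 803 had a share of 0. Their quartiles were 20% and 75%, so single shares here may rest on few reads, also those of 0. Ddx3x had 18.5%, Cul4b, a ubiquitin ligase scaffold, 33.3%, and Wbp5 5.88% of the highest level among members (101 FPKM paternal). Pola1 and C330007P06Rik had paternal values alone (4.40 and 6.29 FPKM), in a column where 110 of 131 X-linked genes had a share of 0.

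Control morulae of the second table gave the same measure in embryos that the rule did not use. Male embryos have no paternal X, so their share measures the background of the allele assignment: it was at most 1.65% (Cstf2) over 51 members, all of them at or under 20%, as were 99% of X-linked genes. In control females the median of 52 members was 35.2% (32.2 to 40.5), between 15.1% for genes low in both and 48.3% for genes high in both. 4 members, or 7.69%, were at or under 20%, against 31.7% of X-linked genes, and 45 were at or over 25%, against 61.1%. The 4 were Hsd17b10 (13%), the ubiquitin-conjugating enzyme gene Ube2a (14.8%), Wbp5 (18.1%) and Ocrl (19.6%). The highest were Gpkow (63.6%), Plp2 (60%), Rgn (58.4%) and the taxilin Txlng (52.0%). Gpkow and Plp2 were near these values in the other morulae too (56.9% and 60%).

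Ngfrap1 and Wbp5 differed between both sets of wild-type female morulae. Ngfrap1 had a share of 82.8% in the stage table and 21.8% in control females, with maternal levels of 0.428 and 23.7 FPKM. Wbp5 had 71.7% and 18.1%, with maternal levels of 0.851 and 34.1. In control males their maternal levels were 28.5 and 28.9 FPKM. The summed level of the 6 trophectoderm markers was 223 FPKM in stage-table morulae, 646 in control females, 1235 in control males and 397 in Xp XRRa KO females, and its part in these differences was not tested. The tables were normalized separately.

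Deletion of paternal XRRa came with equal or paternally biased expression of nearly all members. The median share of 52 members in Xp XRRa KO females was 56.0% (51.7 to 58.6), and none was at or under 20%, against 2.97% of X-linked genes. 35 members were between 40% and 60%, against 53.4% of X-linked genes, and 15 were over 60%. High shares were not particular to the members: the upper quartile was 65.3% for them and 67.3% for all X-linked genes. Over 51 members measured in both groups the share was higher in the KO by a median of 18.7 points (15.7 to 21.4). 39 were higher by at least 10 points, or 76.5%, against 72.9% of X-linked genes, and 2 were lower by as much, against 5.24%. The median difference was 34.3 points for genes low in both tissues and 9.82 for genes high in both, and genes off the X had 0.21. All 3 medians of the KO were close, at 56.0% for members, 53.2% and 53.8%. Neither group has a column per embryo, so these differences were not tested.

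The higher shares came with more paternal RNA, and the maternal median differed less. On log2 FPKM plus 1 the paternal median over the 54 members was 0.91 higher in the KO, with 24 at least 2-fold higher and none 2-fold lower. Of the 69 genes low in both tissues 42 were at least 2-fold higher, and of the 31 high in both 2 were. The maternal median was -0.08, with 5 members at least 2-fold lower and 2 higher. Hsd17b10 had 3.63 FPKM paternal in control females and 21.6 in the KO, with 24.3 and 10.3 maternal. Ube2a had 6.18 and 21.9 paternal, with 35.5 and 15.2 maternal. Ngfrap1 had the largest difference in share, from 21.8% to 97.7%, with 6.60 and 39.5 FPKM paternal and 23.7 and 0.910 maternal. Wbp5 went from 18.1% to 94.0% (7.56 and 27.5 paternal, 34.1 and 1.76 maternal). Their low maternal level in the KO resembles that of stage-table morulae, from which their shares differed by 15 and 22.3 points.

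A few members had a lower paternal share in the KO. Txlng had 52.0% in control females and 30.4% in the KO, where its maternal level was 13.1 FPKM against 3.39. Praf2 had 51.6% and 38.2%, and Msl3 49.6% and 42.9%. Tbc1d25, a Rab GTPase regulator, had 50.9% and 47.4%. The lowest KO share after Txlng and Praf2 was that of Upf3b, a factor of nonsense-mediated decay (40.3%). At the upper end, after Ngfrap1 and Wbp5, Pim2 had 82.5% of 7.11 FPKM. Xist itself was 68.0% paternal in control females (19.5 of 28.6 FPKM) and 23.2% in the KO (7.44 of 32.1 FPKM), and 99.5% in stage-table morulae (20.5 of 20.6).

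**Figure D3:**
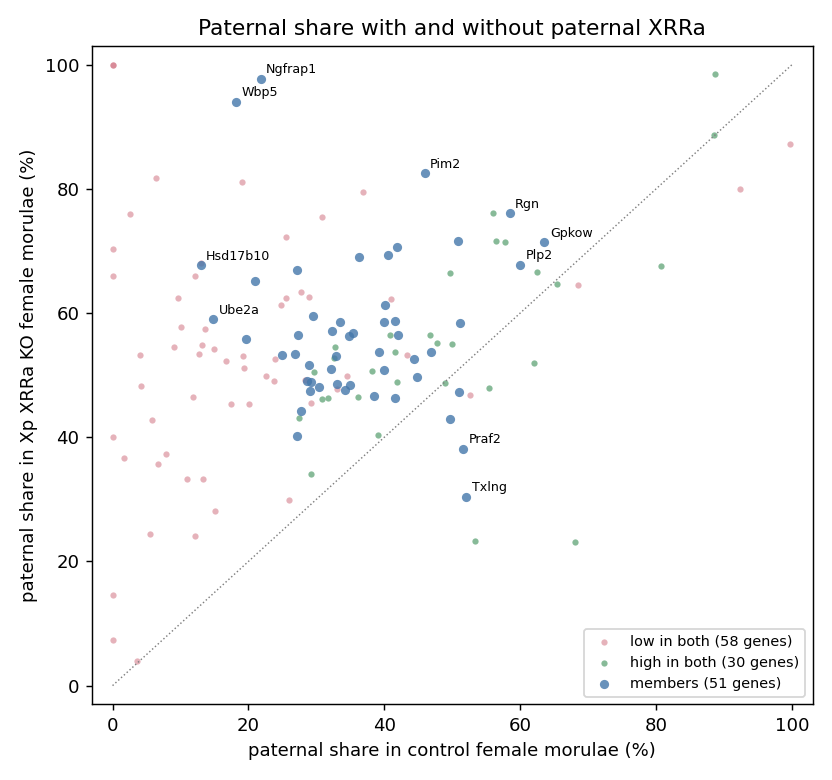
Paternal share in control female morulae (horizontal axis) and in Xp XRRa KO female morulae (vertical axis), both in percent, for genes at 2 FPKM or more in both. Blue points are 51 members, red and green points genes low in both and high in both tissues, and the dotted line marks equal shares. Of the members 47 lie above the line, with Ngfrap1 and Wbp5 at the top left and Txlng and Praf2 below it.

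Single EedmNull embryos allowed tests. In these 13 extraembryonic ectoderm samples the median member share ran from 0.707% (embryo 4) over a median of 37.1% to 80.4% (embryo 13). Embryos 1, 3, 4 and 5 were under 10%, and embryos 8, 11, 12 and 13 over 50%. The members followed the rest of the chromosome: their median differed from that of the other X-linked genes by -3.25 to 1.75 points and was the higher of both in 6 of 13 embryos. Xist was below 2 FPKM in every embryo, and its paternal share ran from 12.2% to 100%. Wild-type extraembryonic ectoderm of E6.5, in another table and a day younger, had a member median of 5.53%.

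**Figure D4:**
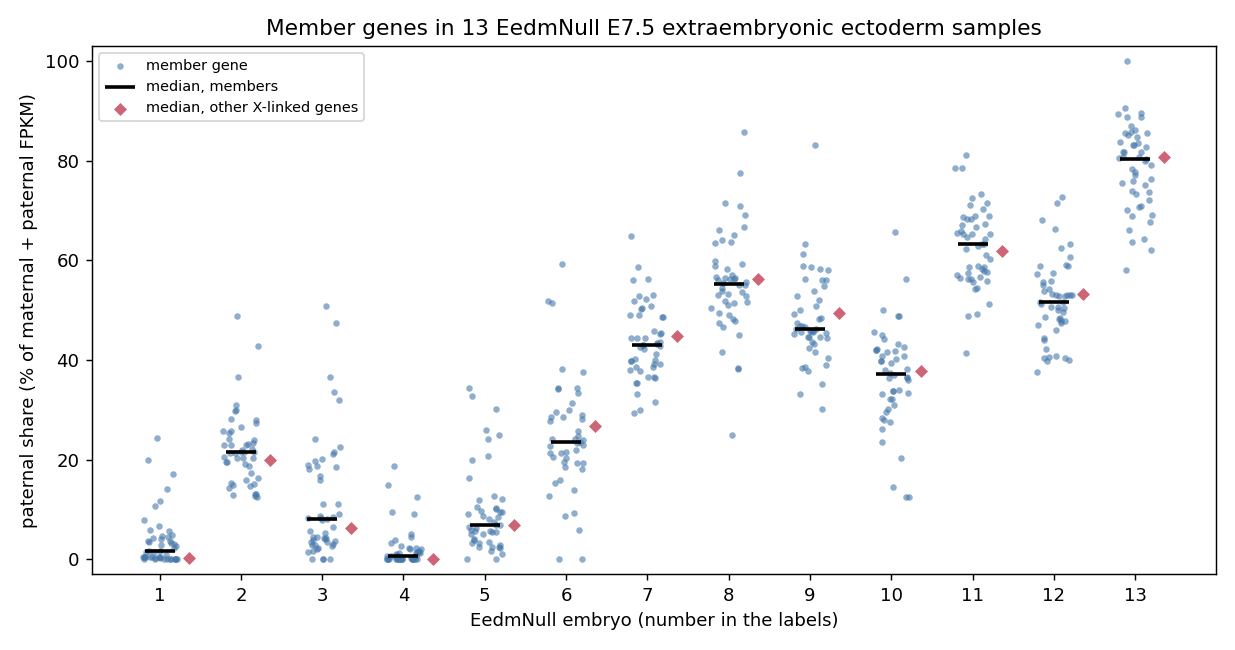
Paternal share of each member gene at 2 FPKM or more (points) in 13 EedmNull embryos, with the member median (bar) and the median of the other X-linked genes (diamond). Member medians run from 0.707% in embryo 4 to 80.4% in embryo 13, and bar and diamond lie within 3.25 points of each other in each embryo.

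The paternal over the maternal level, as a log2 ratio of FPKM plus 1, was tested with limma over 247 X-linked genes with a mean total of at least 2 FPKM, with Benjamini-Hochberg adjustment over all of them. 49 members were tested, and Armcx5, Ikbkg, Rgn, Tsx and Wdr13 were too low. The p-values measure the spread between these 13 embryos. All 49 members had a positive slope on the embryo's median of the other X-linked genes at an adjusted p under 0.05, as had 93.1% of all X-linked genes. The median slope was 1.17, against 1.01 over all. It was lowest for Amot, an angiomotin of Hippo signalling (0.24 ± 0.08, SE, limma adjusted p = 0.00923), and Gripap1 (0.44 ± 0.12), and highest for Wbp5 (2.46 ± 0.20) and Ngfrap1 (2.2 ± 0.12). Slopes followed expression level, with a Spearman correlation of 0.83 with the mean total over the 49 members. The added 1 FPKM pulls the ratio of scarce genes to 0, and with 0.1 FPKM the correlation was 0.52. With 0.1 FPKM the median slope was 1.02 for the members and 1.02 over all X-linked genes. At a mean total of at least 5 FPKM the medians were 1.06 and 0.98, and without a filter on level 6.44 and 1.77. The higher median slope of the members thus depended on these settings.

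Against equal alleles, no member was higher on the paternal allele, where 0.405% of X-linked genes were, and 4 were higher on the maternal allele (8.16%, against 10.9%). At an unadjusted p under 0.05, 32 of the 49 differed from equal alleles, and 135 of the 247 X-linked genes did. The 4 were Apoo (log2 ratio -2.18 ± 0.52, SE), Cited1 (-1.92 ± 0.49), Las1l, of ribosomal RNA processing (-1.83 ± 0.55), and Alg13 (-1.70 ± 0.49), with limma adjusted p from 0.0218 to 0.0433. Apoo was above 0 in 1 of 13 embryos. This count rests on embryo 13: without it 41 of 49 members were higher on the maternal allele, as were 172 of 246 X-linked genes. Without embryos 2, 3, 4, 5, 6 or 10 none was, and without embryos 1, 7 or 11 there were 1, 2 and 7.

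With the embryo's X-linked median taken out, 2 members lay on the paternal side (4.08%, against 10.1% of X-linked genes) and 7 on the maternal side (14.3%, against 11.3%). The median relative ratio of the 49 members was -0.12, against -0.01 over all 247 genes. With 0.1 FPKM added the medians were -0.07 and -0.05, and at a mean total of at least 5 FPKM 0.005 and 0.012. Without a filter on level they were -0.74 and 0.01, so the gap depended on these settings. The paternal share of calls was below that of the chromosome and the maternal one slightly above it, and neither difference was tested. The relative ratio also followed expression level (Spearman -0.76 over the members). Gpkow stood highest, with 1.12 ± 0.10 (SE, limma adjusted p = 1.93e-06), above the embryo median in 13 of 13 embryos. Its share was lowest in embryo 4 (3.85%), with a median of 64.9% and a highest value of 88.8% over embryos. Gripap1 followed with 0.84 ± 0.26 (limma adjusted p = 0.0336), above the median in 12 of 13 embryos, at a mean of only 2.23 FPKM. At that level the added 1 FPKM bears on the ratio: the call was lost with 0.1 FPKM added. By share Gripap1 was at 0% in embryo 4, and at 15.4% in embryo 2 and 63.6% in embryo 13, under the X-linked medians of 20.5% and 80.6%. The next highest, Amot (0.62 ± 0.29, adjusted p = 0.142) and Tfe3 (0.40 ± 0.17, adjusted p = 0.116), did not pass limma's threshold.

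On the maternal side stood Ngfrap1 (-1.30 ± 0.44, SE), Apoo (-1.29 ± 0.20), Cited1 (-1.02 ± 0.15), Las1l (-0.94 ± 0.21), Prdx4 (-0.91 ± 0.30), Alg13 (-0.80 ± 0.15) and Cul4b (-0.70 ± 0.23). Limma adjusted p was 0.00031 for Apoo and Cited1, 0.00196 for Alg13 and 0.00528 for Las1l. For Ngfrap1, Prdx4 and Cul4b it was between 0.045 and 0.046. Apoo, Cited1 and Alg13 were below the embryo median in all 13 embryos. The shares of Apoo ran from 0% over a median of 15.9% to 67.6%, and those of Cited1 from 1.70% over 28.3% to 66.0%. Wbp5 had -1.21 ± 0.56 without passing (adjusted p = 0.140). Apoo had also been low in the 8-cell column and in epiblast. Las1l is its neighbour in the order of measured genes. The calls for Gpkow, Apoo, Cited1, Alg13 and Las1l held without any single embryo. Without a filter on level only Apoo and Cited1 of all 9 kept their call. Gripap1 also lost it with 0.1 FPKM added, as did Prdx4 and Cul4b, and Ngfrap1 and Cul4b lost it with limma's intensity trend. In the fits without 1 embryo, Gripap1 was called in 8 of 13, Ngfrap1 in 4, Prdx4 in 3 and Cul4b in 2. Without embryos 1, 3, 4, 5 or 6 the count on the paternal side was 1, and without embryo 13 it was 4. Without embryos 1 to 7, 10 or 12 the count on the maternal side was 4.

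Gripap1 lies in the longest run of members, near the centromere, and Gpkow just before it; the neighbours there were looked at after their values were seen. In embryo 3, whose X-linked median was 6.49%, Gripap1 had 47.4%, Otud5 36.7%, Pim2 33.6% and Tfe3 32.0%. In embryo 5, with an X-linked median of 6.89%, they had 66.7%, 34.4%, 30.2% and 32.7%. The Gripap1 value of embryo 5 rests on a total of 1.78 FPKM, under the minimum. In embryo 1, with an X-linked median of 0.524%, the same genes had 20%, 7.79%, 11.6% and 17.0%. In embryo 4, with an X-linked median of 0.0392%, Gripap1 had 0%, while Otud5 had 12.5%, Pim2 9.03% and Tfe3 14.9%. The other embryos did not all do so. In embryo 13 these genes had 63.6%, 64.3%, 68.9% and 73.9%, all under the X-linked median of 80.6%. The relative ratios of Otud5 (0.39 ± 0.19), Pim2 (0.35 ± 0.15) and Tfe3 did not pass limma's threshold, with adjusted p of 0.160, 0.116 and 0.116. Praf2, in the same run, had 21.5% in embryo 3 and 9.7% in embryo 5, and a relative ratio of -0.31 ± 0.21.

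**Figure D5:**
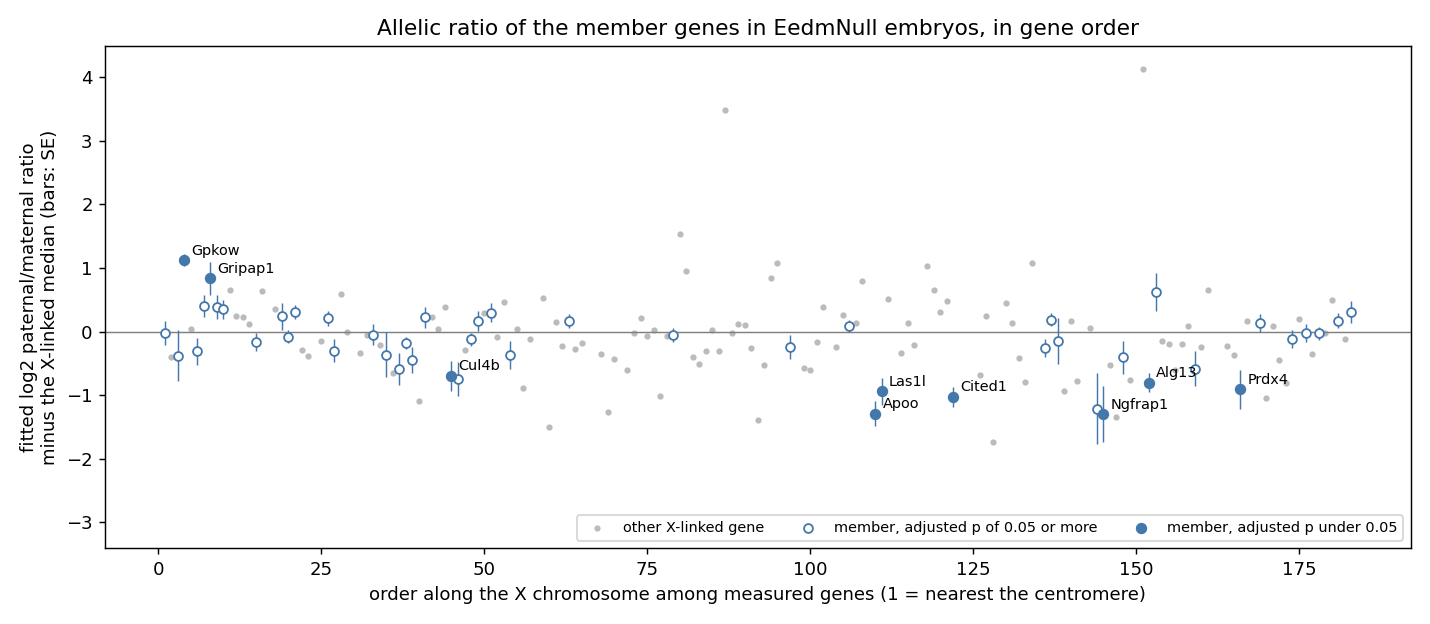
Fitted log2 ratio of paternal to maternal FPKM plus 1 in EedmNull embryos, after the embryo's X-linked median was taken out (vertical axis, bars are SE for members), against the order of measured genes along the X (horizontal axis). Filled points are members with a limma adjusted p under 0.05, open points other members and grey points other X-linked genes. Gpkow and Gripap1 stand above 0 at the centromere end, and the 7 filled points below 0 lie further along.

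The total level of genes that act in X inactivation was compared between morula and trophectoderm as a description. Of 8 measured Polycomb genes 1 (Pcgf5) was at least 2-fold lower and none was 2-fold higher, where 16.8% and 21.8% of 8078 genes were. Eed had 66.0 FPKM in morulae and 34.8 in trophectoderm. Among 10 measured genes for Xist-binding and silencing proteins 1 was at least 2-fold higher (Ciz1, 1.49 and 6.66 FPKM), and the silencing factor Spen had 1.66 and 2.1 FPKM. Of 6 genes for later marks H2afy, which encodes macroH2A, was 2-fold higher or more (15.5 and 79.7 FPKM). Xist was at 20.6 and 15.2 FPKM.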

How the data were processed

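Allele-resolved expression of 42 mouse embryo samples was used as deposited. The authors deposited FPKM per gene for the maternal and the paternal allele. Per the submitters' processing notes, Trim Galore 0.6.4, HISAT2 2.2.0, StringTie 2.1.1 and the assembly mm9 were used. Allele assignment is not given in the sources used here. Pooled columns, 1 per allele and group, fill the stage table (24083 genes) and the morula table (23986), and the EedmNull table holds 1052 X-linked genes of 13 embryos. Each table was normalized on its own, and 5 lines that name no gene were dropped. Without counts, depth and its precision are unknown, and ratios may rest on few reads, those of scarce genes above all.

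Shares were computed from both alleles' FPKM, for totals of at least 2 FPKM, and other genes were left out of that column. Exceptions in the EedmNull embryos are the shares of Xist and that of Gripap1 in embryo 5, given at totals under 2 FPKM. Log2 ratios used FPKM plus 1. Pooled columns allow no test. EedmNull ratios were fitted with limma 3.58.1 in R 4.3.3 and tested two-sided, with Benjamini-Hochberg adjustment over 247 genes; the procedure was tested on simulated data. The labels do not say whether samples of a group came from separate litters, so p-values measure only the spread between them. RefSeq (GRCm38.p6) differs in build from the files and was used for names, gene order and promoters; 2 members matched by an older symbol. The members and all gene lists were chosen with earlier results of these data known. All members are accounted for; those described in full were the 10 with the highest mean total in morula and trophectoderm, up to 4 highest and lowest per comparison, and those within 3 points of a threshold, with others named as examples after their values were seen. Alternatives were the FPKM minimum, the pseudocount, summed shares, stricter and wider thresholds, the names left out, the reference morulae, limma's trend and leaving out embryos. Tables were handled in Python 3.11.15 with pandas 2.3.3, and figures drawn with matplotlib 3.10.9.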

Additional observations from a re-analysis of the deposited data

How the results depend on the processing

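No paired analysis was possible because the replicate numbers of the labels belong to samples that the authors pooled, and the only group with a column per embryo has no partner group. Depth limits could not be computed without counts. The stricter rule kept 32 members, the wider one 75, and including the names left out gave 62; under each of these and under minimums of 1 and 5 FPKM, the member medians of all 11 pooled columns, the KO difference and its count stayed within the intervals or within 1.5 times. Against stage-table morulae the same held. As a share of summed FPKM, members had 20.3% in inner cell mass, 2.28% in visceral endoderm, 6.39% in yolk sac and 0.261% in control males, outside the intervals of the medians. With 0.1 FPKM added, the median paternal log2 ratio from morula to trophectoderm was -2.50.

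In EedmNull embryos, 0.1 FPKM added left 1 member on the paternal side of the X-linked median and 2 higher on the maternal allele. Without a filter, the counts were 0 on the paternal side, 2 on the maternal side and 0 against equal alleles. The relative ratios of Tfe3 (-0.294) and Amot (-0.0700) then reversed, and the cause was not tested. Leaving out each embryo gave 1 to 4 members on the paternal side, 4 to 8 on the maternal side, 0 to 41 higher on the maternal allele, 0 to 0 higher on the paternal allele, and 48 to 49 with a positive slope. The value of 41 came without embryo 13. Without embryos 1 and 4, the farthest from the middle, 47 members had a positive slope. All other alternatives kept these counts within 1.5 times.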
